A study of Mus musculus with 10 samples.

Results

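The regions described here are the bins of 500 kb that lie in the last 12 Mb of mouse chromosomes 1 to 19, next to the distal telomere. They were chosen by position: a bin belonged if it started within 12 Mb of the end of its chromosome in the mm9 build and had a row sum above 0 in the contact maps of both cell types. Of 456 bins in the windows, 454 qualified, out of 4815 usable bins on these chromosomes (9.43%). There were 22 to 24 bins per chromosome. The bins left out, at chr2:175500001-176500000, were empty in at least 1 map, and their neighbour chr2:175000001-175500000 was a member that had been balanced in the plasma map but not in the naive one. Values of single bins below come from the 433 members with enough nonzero entries, unless all 454 are named.

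Mouse autosomes are acrocentric, so the centromere lies at the start of the coordinates of each chromosome and the distal telomere at the end. The distal end and the centromere end of a chromosome are therefore the extremes of a single long arm. In a Rabl arrangement centromeres gather at one side of the nucleus and telomeres at the other, so that like ends of different chromosomes lie near each other and the ends of an arm lie apart. Tethered conformation capture (TCC) is a Hi-C method in which ligation is done on a surface. It counts how often pieces of DNA were close enough in a fixed nucleus to be joined. Balancing then gives each bin the same total, so that a value reads as the part of a bin's contacts that goes to another bin.

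The study set naive B cells, resting cells that have not met antigen, against plasma cells, which secrete antibody, with 1 library per cell type and assay and all samples from C57BL/6 mice. The naive TCC library came from WT splenocytes purified with beads against CD23. The plasma TCC library came from Blimp-GFP mice, which carry a reporter of the plasma cell regulator Blimp-1. Its source field calls the cells ex vivo, whereas its protocols describe CD23+ cells held for 3 days with 10 µg/ml of LPS and sorted for GFP, so cell type, genotype, culture and library cannot be told apart in these maps. For ATAC-seq, which cuts open chromatin, 50000 cells per library were used: CD23+ IgD+ spleen cells as naive cells and CD138+ B220- bone marrow cells as plasma cells, both WT. The naive RNA library was sorted in the same way as the naive ATAC cells. The plasma RNA library, also WT, has a source field naming activation in culture and a protocol naming the bone marrow sort. The ChIP-seq samples were not analysed here.

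The 500 kb maps held 36.5 M read pairs (M for 1000000) in the naive and 38.1 M in the plasma library, of which 8.90 M and 7.56 M joined different chromosomes. With 1 library per cell type no comparison below has a test, and each interval is an exact 95% Poisson or binomial interval that covers counting error alone. It holds no spread between libraries or animals and no effect of balancing. It may also be too narrow, because no molecular identifiers separate copies of a molecule from new molecules. The RNA libraries held 37.0 M and 43.5 M estimated counts. Among plasma cell markers, Prdm1 (which encodes Blimp-1) went from 2.29 to 249 TPM, Xbp1 from 109 to 939 TPM, Irf4 from 96.6 to 221 TPM and Igj (the J chain) from 510 to 3027 TPM. Sdc1, which encodes CD138, was at 11.1 TPM in the naive and 5.38 TPM in the plasma library, against its label. Markers of naive B cells were lower in the plasma library, from Fcer2a (CD23) at 1062 against 6.78 TPM to Ms4a1 (CD20) at 1323 against 214 TPM. Ighd gave no value.

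Contacts between the distal ends of different chromosomes were more frequent in the plasma map. The mean contact between a distal bin of 1 chromosome and a distal bin of another was 1.48 times the mean contact between autosomes in the naive map (95% interval 1.48 to 1.49, from 130728 read pairs). In the plasma map it was 2.46 times that mean (2.45 to 2.47, from 165032 read pairs). The plasma level was thus 1.66-fold higher, a log2 ratio of 0.73 (0.72 to 0.74). Contacts between bins that lay in neither end were at 0.938 and 0.925 times the mean, a log2 ratio of -0.02. They make up most of the mean that all values are divided by, so a ratio near 0 is fixed by that scaling. Per 1000 of a bin's contacts and not divided by the mean, which itself differed by -0.29 on the log2 scale, the ratio was -0.31 for these bins and 0.44 between distal ends. Centromere ends, here the stretch from 3 to 12 Mb, also met one another more in plasma, at 1.94 against 3.00 times the mean, a log2 ratio of 0.63.

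Contacts between opposite ends were less frequent in plasma. Distal bins contacted centromere ends of other chromosomes at 1.14 times the mean in the naive map and at 0.620 times in the plasma map, a log2 ratio of -0.88 (-0.89 to -0.87). In the naive map distal bins thus met centromere ends of other chromosomes slightly more than the average pair of bins, and in the plasma map less. With the middle of other chromosomes the levels were 1.07 and 1.04, a log2 ratio of -0.05.

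Relative to the mean between autosomes, contact between distal ends was higher in plasma on 19 of 19 chromosomes, with sizes that ranged widely. Not divided by that mean it was higher on 17, with chromosomes 16 and 19 on the other side. In the naive map the mean contact of a chromosome's distal end with the other distal ends lay between 1.31 times the mean (chromosome 7) and 1.85 times (chromosome 16), with a median of 1.48. In the plasma map it lay between 1.54 times (chromosome 19) and 3.10 times (chromosome 4), with a median of 2.56. The ranges overlap only through the plasma values of chromosome 19, which is inside the naive range. The other 18 plasma values were above the highest naive one.

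**Figure D1:**
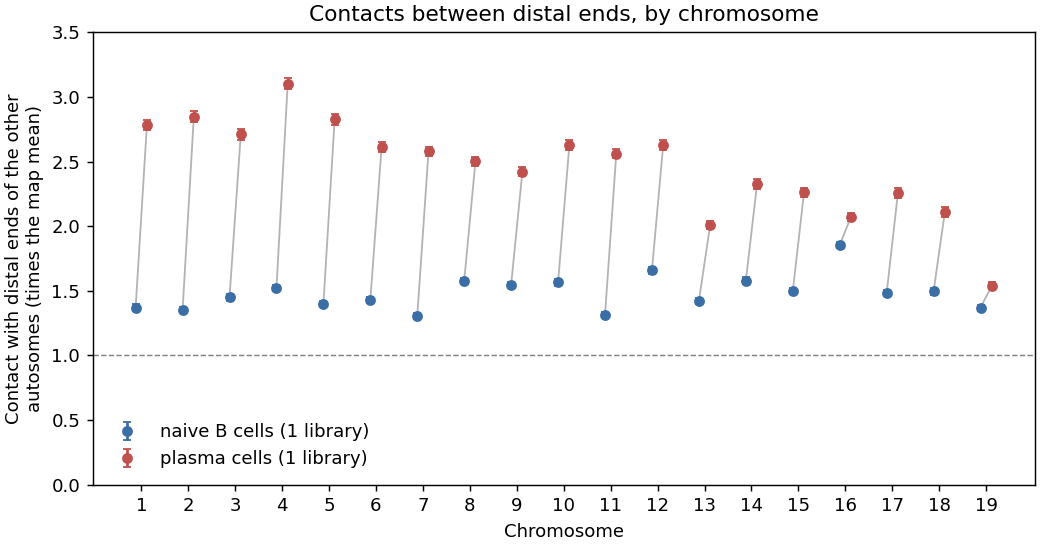
Mean contact of the distal end of each chromosome with the distal ends of the other autosomes, in times the mean contact between autosomes of the same map, for the naive (blue) and the plasma (red) library; bars are 95% counting intervals, mostly smaller than the points, and the dashed line marks the map mean. On this scale the plasma value is above the naive one on 19 of 19 chromosomes (17 without division by the mean, not 16 and 19), from 1.37 against 1.54 on chromosome 19 to 1.52 against 3.10 on chromosome 4.

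Chromosomes 1, 2, 4 and 5 gained most. Chromosome 2 had 1.35 in the naive and 2.85 in the plasma map, chromosome 4 had 1.52 and 3.10, chromosome 1 had 1.37 and 2.78, and chromosome 5 had 1.39 and 2.83, with log2 ratios from 1.02 to 1.08. Each of these ends doubled its relative contact with other ends. Chromosomes 7, 11, 3 and 6 followed with log2 ratios of 0.98, 0.96, 0.90 and 0.87. Chromosomes 7 and 11 had the lowest levels of the 19 in the naive map, 1.31 each, and reached 2.58 and 2.56 in the plasma map. Chromosome 3 went from 1.45 to 2.71 and chromosome 6 from 1.43 to 2.61.

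A middle group held chromosomes 8, 9, 10 and 12, whose log2 ratios were 0.67, 0.65, 0.74 and 0.66, and chromosomes 14, 15 and 17, at 0.56, 0.60 and 0.61. Their plasma levels ran from 2.26 on chromosomes 15 and 17 to 2.63 on chromosome 12. Chromosomes 13 and 18 each had a ratio of 0.50, from 1.42 to 2.01 and from 1.495 to 2.11.

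Chromosomes 16 and 19 stood at the low end of the gain. Chromosome 16 had the highest naive level of the 19, 1.85 (95% interval 1.83 to 1.88), and was at 2.07 (2.04 to 2.10) in plasma, a log2 ratio of 0.16. Chromosome 19, the shortest at 61.3 Mb, was at 1.37 (1.35 to 1.39) and 1.54 (1.51 to 1.57), a ratio of 0.17. The direction of both depends on the scaling: not divided by the mean between autosomes, the ratios were -0.13 for chromosome 16 and -0.12 for chromosome 19, and both ends had fewer read pairs with other distal ends in plasma (18699 and 16435, 13214 and 11411).

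The gain followed chromosome length as a description over 19 chromosomes that share the same 2 libraries: Pearson's r of length with the log2 ratio was 0.86 and Spearman's rho 0.89. With the plasma level they were 0.85 and 0.88. In the naive map the level did not track length in that direction, with r of -0.34 and rho of -0.27. The naive and plasma levels of the chromosomes were themselves weakly related, with r of -0.16. Contact of distal ends with the middles of other chromosomes also differed by chromosome on this scale. Its log2 ratio ran from -0.37 on chromosome 16 to 0.25 on chromosome 11. Whether the relation with length is particular to contact between ends was not tested.

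Seen pair by pair, 161 of 171 pairs of chromosomes had more contact between their distal ends in the plasma map, and for 149 the counting interval of the ratio lay above 0 on the log2 scale. The same count was 75 of 171 (43.9%) for the middles of chromosomes, whose balance the scaling sets, and 67 of 171 (39.2%) for distal bins against middles. Not divided by the mean, it was 141 of 171 between distal ends and 3 of 171 (1.75%) between middles. With each value divided by the mean contact of that pair of chromosomes, a choice made after seeing the data, the count between distal ends was 170 of 171. Read pairs behind a pair of ends ranged from 273 to 1825 in the naive and from 398 to 1900 in the plasma library.

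The 5 pairs with the largest ratios were chromosomes 2 and 11, 2 and 4, 3 and 11, 3 and 5, and 1 and 11. The ends of chromosomes 2 and 11 went from 0.919 times the mean (557 read pairs) to 2.95 times (1187), a log2 ratio of 1.68 (1.54 to 1.83). Those of chromosomes 2 and 4 went from 1.86 (967 read pairs) to 5.93 (1599), a ratio of 1.67 (1.56 to 1.79). The level of 5.93 was the highest in plasma of the 171 pairs, though chromosomes 8 and 11 had more read pairs (1900) at a level of 3.42. Both ends of chromosomes 2 and 4 hold members with too few nonzero entries, which balancing brings to the same total as other bins. The interval does not cover this, and how much of the level rests on these bins was not tested. Chromosomes 3 and 5 went from 1.37 to 4.29. Chromosome 11 thus met chromosomes 1, 2 and 3 less than the average pair of bins in the naive map, at 0.747, 0.919 and 0.739 times the mean, and more in the plasma map, at 2.30, 2.95 and 2.32 times.

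The 5 pairs with the smallest ratios were chromosomes 13 and 16, 12 and 19, 9 and 19, 14 and 18, and 16 and 19. The ends of chromosomes 13 and 16 were at 1.99 times the mean in naive (1045 read pairs) and 1.52 times in plasma (636), a log2 ratio of -0.39 (-0.53 to -0.25). The ends of chromosomes 12 and 19 were at 2.22 and 1.84, a ratio of -0.27, and those of chromosomes 9 and 19 at 1.85 and 1.54, also -0.27. In 5 pairs the interval lay below 0, and each of these held chromosome 16 or 19. The highest naive level, 2.65 times the mean, was that of chromosomes 11 and 15, which had 2.76 times in plasma, a ratio of 0.06.

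**Figure D2:**
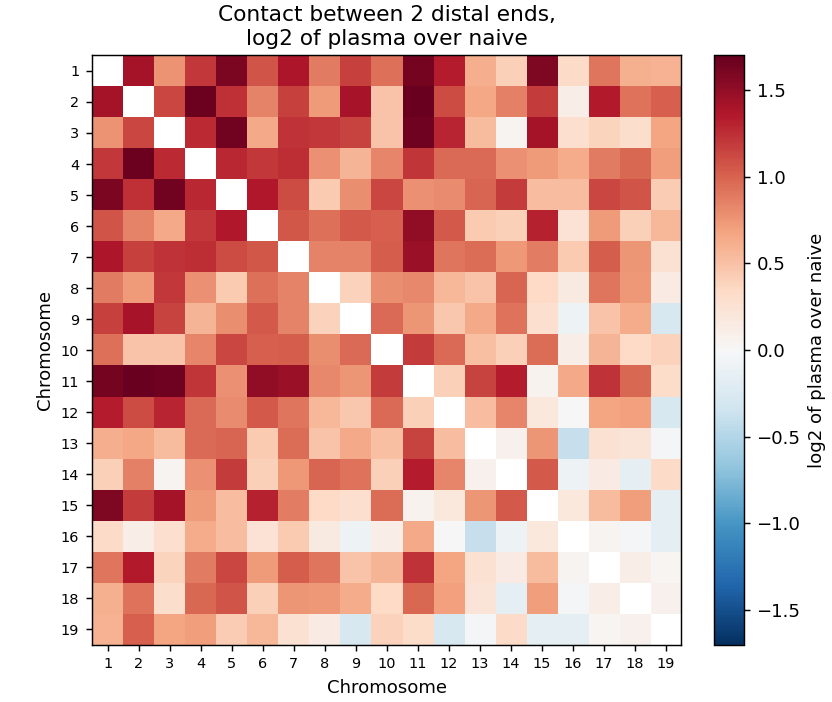
Log2 ratio of plasma over naive contact between the distal ends of each pair of autosomes (rows and columns are chromosomes 1 to 19, red is more contact in plasma, blue less, white cells on the diagonal hold no value). The values run from -0.39 (chromosomes 13 and 16) to 1.68 (chromosomes 2 and 11), with 161 of 171 above 0.

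Pairs of chromosomes of like length contacted each other more at their ends in both maps. In the third of pairs closest in length (differences up to 25.4 Mb) the level was 1.61 in naive and 2.68 in plasma. In the third farthest apart (46.0 to 136 Mb) it was 1.28 and 2.10. The log2 ratio was about the same in the 3 groups, at 0.73, 0.75 and 0.73, so the ratio did not follow the difference in length.

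The gain was steepest at the very end and tapered inwards past the 12 Mb border. Bins within 2 Mb of the end had contacts with distal ends of other chromosomes of 1.79 ± 0.35 times the mean (SD over 67 bins) in naive and 3.24 ± 0.72 in plasma, a log2 ratio of 0.86. At 10 to 12 Mb the levels were 1.31 ± 0.24 and 2.07 ± 0.43 (74 bins), a ratio of 0.66. Just outside, at 12 to 14 Mb, the levels were 1.29 and 1.94, a ratio of 0.59, so no step marks the border. The ratio was 0.34 at 22 to 24 Mb, 0.29 at 32 to 34 Mb and -0.04 at 46 to 48 Mb. How far inwards the gain reaches depends on the scaling. Not divided by the mean between autosomes, each ratio shifts by -0.29, and the 2 maps would meet at 32 to 34 Mb. Neighbouring bins and bins of 1 chromosome share their source, so these SDs describe bins and not replicates.

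**Figure D3:**
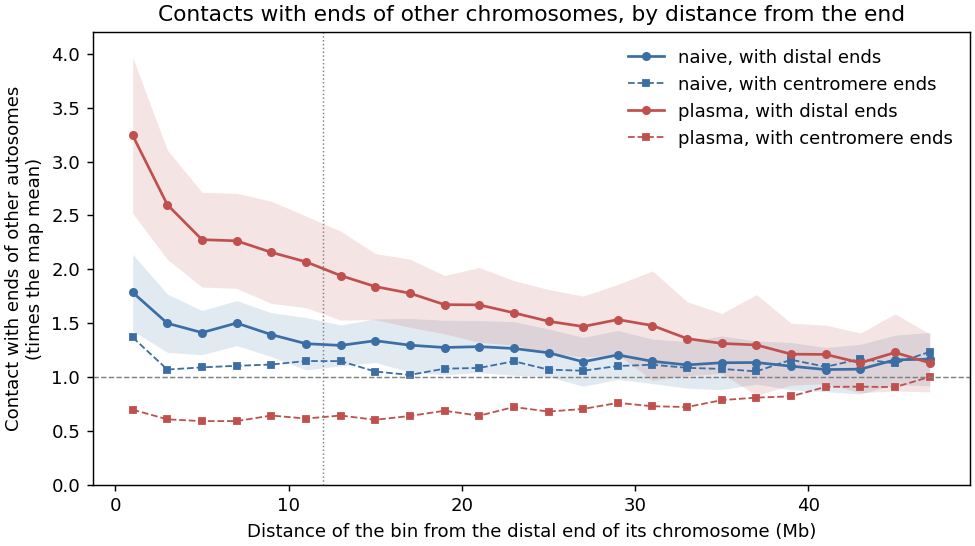
Mean contact of bins with the distal ends (solid lines, shading is 1 SD over bins) and the centromere ends (dashed lines) of other autosomes, in times the map mean, against the distance of the bin from the distal end of its own chromosome in steps of 2 Mb; the dotted line marks 12 Mb. Contact with distal ends starts at 1.79 in naive and 3.24 in plasma and meets at about 46 Mb on this scale (32 to 34 Mb without division by the mean). Contact with centromere ends is lower in plasma from the end inwards, 1.37 against 0.696 in the first step.

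When both partners were split by position, the outermost 4 Mb of 1 chromosome met the outermost 4 Mb of another at 1.96 times the mean in naive and 3.90 times in plasma, a log2 ratio of 0.99. For 8 to 12 Mb against 8 to 12 Mb the levels were 1.29 and 2.05, a ratio of 0.66. Of the 6 combinations of position, the outermost pair had the highest level in both maps and the largest ratio.

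Bin by bin, values were again taken relative to the mean between autosomes. On that scale 295 of 454 distal bins (65.0%) contacted other distal ends at least 1.5 times more in plasma, against 14.6% of bins over chromosomes 1 to 19. None of the 454 was lower by that factor, against 25.5% of bins. A gain of any size was seen in 444 bins and a loss in 10. The log2 ratio ran from -0.19 to 1.44 with a median of 0.72. On chromosomes 1, 2, 6 and 7 each bin with enough entries passed 1.5 times (23, 19, 23 and 23 bins), and on chromosomes 16 and 19 none of 24 did. Not divided by the mean between autosomes, each log2 ratio shifts by -0.29, and more than 10 bins would count as a loss. The median ratios on chromosomes 16 and 19, 0.19 and 0.16, are smaller in size than that shift. Bins were not counted without the division.

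The 5 bins with the largest gain lay on chromosomes 2, 4 and 11. The largest, chr2:171000001-171500000, had 0.955 times the mean in naive (332 read pairs) and 2.59 times in plasma (683), a log2 ratio of 1.44. On chromosome 11 the bins chr11:112000001-112500000 and chr11:114000001-114500000 both had a ratio of 1.41, and on chromosome 4 chr4:152000001-152500000 had 1.41 and chr4:148000001-148500000 had 1.38. The highest of these in the plasma map was chr4:148000001-148500000, at 4.13 times the mean against 1.59 in naive. The 5 smallest lay on chromosomes 16 and 19, led by chr19:56000001-56500000, which had 1.5 times the mean in naive (746 read pairs) and 1.32 in plasma (498), a ratio of -0.19. The others were chr19:54000001-54500000 at -0.14 and 3 bins of chromosome 16, within 9 Mb of its end, at -0.16 to -0.12.

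The immunoglobulin heavy chain locus lies in the distal end of chromosome 12. Its 7 bins, taken at chr12:114000001-117500000 from all 454 members, had log2 ratios of contact with other distal ends between 0.33 and 0.89. The bins starting at 115000001, 116000001 and 116500001 are among the members with too few nonzero entries, and the last rests on 112 naive and 135 plasma read pairs.

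Distal bins gave a smaller share of their contacts to other chromosomes in plasma, by about as much as the rest of the genome. The share of a distal bin's contacts that went to other chromosomes was 27.8% in naive and 23.4% in plasma, a difference of -4.36 percentage points. Bins in the middle went from 24.0% to 19.5% (-4.42 points) and all autosome bins from 24.8% to 20.4% (-4.39 points). What differed between the maps was where the contacts went. Contacts with other distal ends took 3.33% of a distal bin's total in naive and 4.52% in plasma, those with other centromere ends 1.92% and 0.850%, and those with the middle of other chromosomes 21.3% and 16.8%. On the own chromosome, the bin's own distal end took 43.8% and 54.6%, the middle 27.3% and 21.7%, and the own centromere end 1.09% and 0.274%. Centromere-end bins differed in the mirrored way, so this was not particular to distal bins. Their own end took 41.0% in naive and 48.4% in plasma, centromere ends of other chromosomes 3.32% and 4.22%, and distal ends of other chromosomes 2.61% and 1.14%.

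The share with other chromosomes was lower in plasma at 15 of 19 distal ends and higher at those of chromosomes 2, 5, 7 and 11, by 0.41, 0.40, 0.50 and 0.85 points. In the rest of the chromosome it was lower on 19 of 19. The widest difference was on chromosome 16, whose distal bins went from 35.6% to 23.3% (-12.2 points), while the rest of that chromosome went from 28.9% to 22.4% (-6.57 points). The change at the distal end was less negative than in the rest on 9 chromosomes and more negative on 10, with chromosome 5 (5.08 points less negative) and chromosome 16 (-5.66 points) at the extremes. Over the 19 ends the naive share ran from 20.9% (chromosome 1) to 37.4% (chromosome 19) and the plasma share from 20.0% (chromosome 3) to 29.5% (chromosome 19). The spread between chromosomes was thus narrower in plasma, with an SD of 2.42 points against 4.73.

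Among single bins, 201 of 454 (44.3%) had a share at least 5 points lower in plasma, close to the 42.8% of all autosome bins. A higher share was seen in 66. The 5 bins with the largest loss were all on chromosome 16, led by chr16:97500001-98000000, at 42.7% in naive and 26.6% in plasma. The largest gain was at chr11:114500001-115000000, from 22.2% to 29.7%, next to chr11:114000001-114500000, from 22.6% to 29.2%.

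The loss of contact with centromere ends was as widespread as the gain between distal ends. Relative to the mean between autosomes it was present on 19 of 19 chromosomes, with log2 ratios from -1.26 (chromosome 14) to -0.32 (chromosome 2). On that scale it was seen in 168 of 171 pairs, against 47 of 171 (27.5%) for middles with centromere ends. Not divided by the mean, contact with centromere ends was higher in plasma in 2 of 171 pairs for distal ends and in 13 of 171 for middles. The undivided log2 ratios were -1.17 for distal ends and -0.21 for middles, so middles also had less of this contact, by a smaller ratio. In read pairs chromosome 2 went from 3057 to 1438, and chromosome 1, with a ratio of -1.11, from 3576 to 1373. The end of chromosome 2 holds sparse bins, including chr2:175000001-175500000, which was balanced in the plasma map alone. How far the ratios of chromosome 2 and its pairs depend on these bins was not tested. It was not limited to the last 12 Mb, with ratios of -0.84 at 12 to 14 Mb, -0.80 at 14 to 16 Mb and -0.30 at 46 to 48 Mb from the end. The 3 pairs on the other side were chromosomes 2 and 8 (0.812 against 1.30 times the mean, a ratio of 0.68), 14 and 19 (1.24 against 1.82, 0.55) and 5 and 14 (0.14). In the naive map 11 of 19 distal ends met centromere ends of other chromosomes above the map mean. In the plasma map that held for chromosome 19 alone, whose end was at 2.54 in naive and 1.83 in plasma.

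Along its own chromosome, a distal end had far less contact with its centromere end in plasma. The mean contact of a distal bin with the centromere end of its own chromosome, per 1000 of the bin's contacts, was 0.608 in naive (73850 read pairs) and 0.152 in plasma (19452), a log2 ratio of -2.00 (-2.02 to -1.97). It was lower on 19 of 19 chromosomes, from -3.35 on chromosome 3 to -0.28 on chromosome 19, whose ends are nearest to each other. Chromosome 3 went from 0.394 to 0.0386 and chromosome 1 from 0.229 to 0.0230, while chromosome 19 went from 0.857 to 0.705.

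Much of that loss is shared by other bins at the same distance. For the 93.8% of these bin pairs that had a match in distance without distal bins (none on chromosome 1), the levels without distal bins were 0.518 in naive and 0.156 in plasma, a ratio of -1.73. The distal to centromere pairs themselves had -1.98. The matches were not limited to the same chromosome, since without distal bins the longest distances occur only on longer chromosomes. The distal pairs were the more negative on 11 of 18 chromosomes, so the sign of the difference was not shared by all of them. That count sets each chromosome at least partly against others. The contact of the ends over that at the same distance was 1.22 in naive and 1.03 in plasma.

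By distance, contacts were more frequent in plasma up to about 30 Mb and less frequent beyond 30.5 Mb, and distal bins had the ratio farther from 0 at each distance compared except 20.5 to 30 Mb, where it was 0.17 with 1 distal bin and 0.20 without. Within the distal end the mean contact was 7.95 per 1000 in naive and 11.4 in plasma, a log2 ratio of 0.52, higher on 19 of 19 chromosomes (0.38 on chromosome 14 to 0.66 on chromosome 1). For bins 0.5 to 1 Mb apart the ratio was 0.54 inside the distal end and 0.44 where neither bin was distal. At 4.5 to 8 Mb it was 0.54 against 0.19, and at 8.5 to 11.5 Mb 0.61 against 0.25. In the 8.5 to 11.5 Mb class the distal ends were higher in plasma on 18 of 19 chromosomes and pairs without distal bins on 19 of 19. Where 1 bin was distal the ratio was -0.24 at 30.5 to 45 Mb, -0.80 at 45.5 to 60 Mb and -2.83 at 100.5 to 130 Mb, against -0.10, -0.63 and -2.24 without distal bins.

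**Figure D4:**
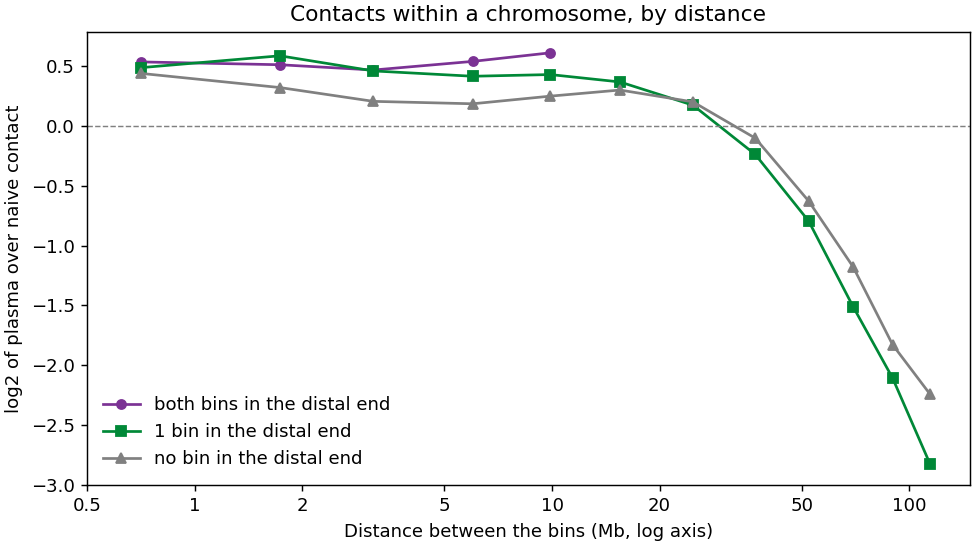
Log2 ratio of plasma over naive contact within a chromosome against the distance between the bins (log axis), for pairs with both bins in the distal end (circles), 1 bin in it (squares) and none (triangles), pooled over chromosomes 1 to 19. Pairs inside the distal end stay between 0.47 and 0.61, pairs with no distal bin lie below them at each shared distance, and the lines with 1 distal bin and none turn negative past 30 Mb.

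The A compartment is the active and the B compartment the inactive class of chromatin that a contact map separates. In the naive map 260 of 433 distal bins (60.05%) lay in A, and in the plasma map 223 (51.5%), against 49.5% and 45.3% of all bins. Calling a switch only where both values passed 0.25 SD on opposite sides, 12 distal bins went from A to B and none from B to A, which is 12 of 433 against 1.34% of all bins (56 from A to B and 5 from B to A). The bin with the widest loss of peaks among them, chr13:111000001-111500000, went from 0.83 to -0.55 SD and from 15 to 3 ATAC peaks. At chr18:81500001-82000000 the component went from 1.01 to -0.29 SD with 6 and 5 peaks. The plasma component and the plasma peaks come from different plasma cell preparations.

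Contacts between distal ends were more frequent in plasma whichever compartments met. Between A bins of distal ends the level was 2.19 in naive and 3.22 in plasma (log2 ratio 0.56), between B bins 1.93 and 3.07 (0.67), and between A and B bins 0.862 and 1.59 (0.89). In the middle of chromosomes the ratios were -0.12 for A with A, -0.06 for B with B and 0.12 for A with B. Mixed A and B contacts between distal ends thus went from below to above the map mean, while those between middles stayed below it at 0.542 and 0.588. The ratios in this paragraph are relative to the mean between autosomes. Not divided by it, each log2 ratio shifts by -0.29, which is larger in size than each of the 3 ratios between middles. The sign of the A with B ratio between middles therefore depends on the scaling. Single distal bins in A had a median ratio of contact with distal ends of 0.65 (220 bins) and those in B 0.84 (170 bins).

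Peaks of open chromatin were denser in distal ends than elsewhere, and the ratio of plasma over naive peaks was also higher there. Distal ends held 3129 ATAC peaks in the naive and 3483 in the plasma list, 14.04 and 15.6 per Mb, a ratio of 1.11 (1.06 to 1.17). The rest of the chromosomes held 25485 and 25922 peaks, 11.3 and 11.52 per Mb, a ratio of 1.02 (1.00 to 1.03). Distal ends thus took 10.9% of the naive peaks (10.6 to 11.3) and 11.8% of the plasma peaks (11.48 to 12.2) on 9.01% of the length. Of the naive peaks in distal ends 73.4% (71.8 to 74.9) shared 1 base or more with a plasma peak, against 68.7% elsewhere. Of the plasma peaks there 65.1% (63.5 to 66.7) did so with a naive peak, against 67.0% elsewhere. Peaks without a partner had lower scores of the authors' caller, with medians of 102 in naive and 113 in plasma against 331 and 391 for shared peaks.

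By chromosome, 17 of 19 distal ends had more peaks in plasma, and on 15 the ratio was above that of the rest of the chromosome. The ends with the largest ratios were those of chromosome 8 (174 and 234 peaks, 1.34) and chromosome 9 (174 and 224, 1.29). Intervals lay above 1 on 4 ends, those of chromosomes 4, 8, 9 and 15. Chromosomes 1 and 14 had fewer peaks in plasma (178 and 160, 120 and 108), with intervals that span 1.

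**Figure D5:**
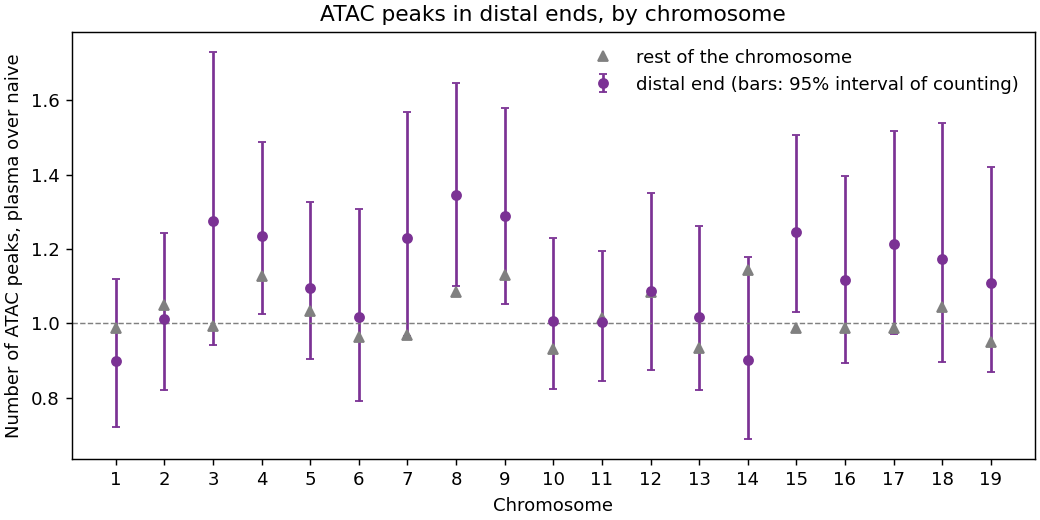
Number of ATAC peaks in the plasma list over the number in the naive list, for the distal end of each chromosome (circles, bars are 95% counting intervals) and for the rest of the chromosome (triangles). Ratios in distal ends run from 0.899 (chromosome 1) to 1.34 (chromosome 8), and the ratio is above that of the rest on 15 of 19 chromosomes.

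Of 283 distal bins with at least 5 peaks in 1 list, 78 (27.6%) had at least 1.5 times more in plasma, against 20.8% of all such bins, and 45 (15.9%) had at least 1.5 times fewer, against 17.5%. The largest gains were at chr8:123000001-123500000 (12 and 25 peaks) and chr8:125000001-125500000 (12 and 24), then chr17:84000001-84500000 (20 and 32), chr12:112500001-113000000 (12 and 23) and chr17:84500001-85000000 (8 and 18). The largest losses were at chr13:111000001-111500000 (15 and 3), chr11:114000001-114500000 (11 and 1), chr1:185500001-186000000 (16 and 7), chr2:173000001-173500000 (20 and 11) and chr1:190500001-191000000 (14 and 6). The bin chr11:114000001-114500000 was therefore among the 5 with the largest loss of peaks, the 5 with the largest gain in contact with other ends, and the bins with the largest gain in share.

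The gain in contact was not limited to bins that gained peaks. By their protocols the plasma peaks come from WT bone marrow cells and the plasma contacts from Blimp-GFP cells cultured with LPS. The 2 changes, also at the chromosome 11 bin above, were thus not measured in the same plasma cells. Its median log2 ratio was 0.67 in the 76 bins with at least 1.5 times more peaks, 0.84 in the 41 with at least 1.5 times fewer, and 0.91 in the 52 with no peak in either list. Naive levels of contact differed in the other direction, with medians of 1.54, 1.46 and 1.22.

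The strongest peaks seen in 1 list alone marked individual sites. In the naive list the highest score was 1260 at chr5:150437644-150440150, followed by 1033 at chr15:95792251-95794652, 1019 at chr10:124806445-124808723, 798 at chr14:119232791-119234889 and 765 at chr13:109475874-109478185. In the plasma list it was 1236 at chr13:114939749-114943047, followed by 910 at chr18:85042513-85045784, 843 at chr17:89068760-89072201, 791 at chr8:128918640-128921139 and 774 at chr15:100018439-100020471. The genes at these mm9 positions were not looked up, since the annotation at hand belongs to a different build.

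The authors' lists of interactions between 1 Mb bins held more pairs of distal ends in plasma. Between distal ends of different chromosomes the authors' deposited lists held 1072 of 51456 listed pairs in naive (2.08%, 1.96 to 2.21) and 3621 of 49374 in plasma (7.33%, 7.11 to 7.57), where 0.887% of possible pairs of bins are of that kind. Of these, 554 were in both lists, which is 51.7% of the naive and 15.3% of the plasma set, against 31.1% and 32.4% for all listed pairs between chromosomes. Listed pairs between chromosomes with at least 1 distal bin were about as frequent in both lists, at 21.5% in naive and 22.9% in plasma. Between distal and centromere ends the lists held 662 of 51456 pairs in naive and 78 of 49374 in plasma. The share of possible pairs of that kind was not computed. More pairs between distal ends were listed in plasma for the ends of 17 of 19 chromosomes, with the widest ratio on chromosome 7 (66 in naive and 546 in plasma). The same count was not made for other parts of the chromosomes. The exceptions were chromosome 16 (246 and 233) and chromosome 19 (46 and 32). The pair with most reads in the naive list joined chr11:119000001-120000000 with chr15:99000001-100000000, with 55 read pairs against 32 in plasma. In the plasma list it joined chr8:124000001-125000000 with chr11:118000001-119000000, with 59 read pairs against 21 in naive.

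RNA of the last genes in order on each chromosome was spread much like that of all genes. Because no annotation of the files' build was used, genes were taken by order, as the last 100 protein-coding genes of each chromosome, of which 1767 of 1900 matched (93.0%). This set does not follow the 12 Mb border, so genes in it, named ones included, can lie outside the members. The promoter of Lbh, gene 100 from the end of chromosome 17, begins at position 72918055 in GRCm38.p6. That chromosome is 95.3 Mb long in mm9. Of 892 that reached 5 TPM in a library, 108 (12.1%) had a centred ratio of 2-fold or more in favour of plasma, against 14.4% of all protein-coding genes of chromosomes 1 to 19, and 193 (21.6%) a ratio of 2-fold or more in favour of naive, against 20.9%. The median centred log2 ratio, on log2 of TPM plus 1, was -0.26, against -0.22 for all. By chromosome the median ran from -0.60 on chromosome 16 and -0.59 on chromosomes 2 and 10 to 0.05 on chromosome 11.

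The 10 genes with the largest ratios lay on 7 chromosomes. Bhlha15, which encodes the transcription factor MIST1 of secretory cells, had 1.56 TPM in naive and 51.4 in plasma, a centred log2 ratio of 5.34. P4hb, which encodes protein disulfide isomerase of the endoplasmic reticulum, had 119 and 590 TPM (3.29). Pycr1, an enzyme of proline synthesis, had 2.22 and 61.9 TPM (5.27), and Slc7a5, a transporter of large amino acids, 14.4 and 194 TPM (4.64). The mitosis genes Ccnb1 and Birc5 had ratios of 3.84 and 3.51. Lars2 and Cars, which encode tRNA synthetases, had 3.39 and 2.46, and Mvd, of the mevalonate pathway, 3.09.

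Isg15, a gene induced by interferon, is the seventh protein-coding gene from the end of chromosome 4, the chromosome whose distal end had the highest plasma contact. It had 16.8 TPM in naive and 173 in plasma, a ratio of 4.27. Its promoter is shown because it was the 1 of 15 matched promoters of named genes that held any of 3 motifs searched on both strands: the interferon element (GAAA, 2 bases of any kind, GAAA), which 3.44% of 32851 promoters hold, the endoplasmic reticulum stress element (CCAAT, 9 bases of any kind, CCACG; 0.119%) and the core of the unfolded protein response element (TGACGTGG; 0.676%). The sequence is that of RefSeq for GRCm38.p6, chr4:156200769-156201068, minus strand, from 250 bases before to 50 after the start, and the capitals mark 3 overlapping matches to the interferon element. A match of letters is a description and not a measured site.
Isg15: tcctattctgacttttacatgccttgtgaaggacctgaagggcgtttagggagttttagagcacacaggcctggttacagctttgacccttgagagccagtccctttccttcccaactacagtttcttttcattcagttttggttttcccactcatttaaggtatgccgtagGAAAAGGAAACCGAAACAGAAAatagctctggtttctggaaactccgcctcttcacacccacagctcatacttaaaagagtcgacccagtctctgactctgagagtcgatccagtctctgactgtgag

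The 10 genes with the smallest ratios included genes of B cell surface proteins and signalling. Cr2, which encodes complement receptor CD21, was the last protein-coding gene in order on chromosome 1 and had 491 TPM in naive and 19.3 in plasma, a ratio of -3.61. Itgb7, an integrin subunit used in homing, had 124 and 3.05 TPM (-3.96), and Traf5, an adaptor of TNF receptors, 79.7 and 2.52 (-3.53). Haao, of tryptophan breakdown, had 207 and 5.53 TPM (-4.01). The others were 5830405N20Rik (-4.13), Plbd1 (-3.82), Lbh (-3.69), Lrmp (-3.46), Evl (-3.04) and Brwd1 (-3.02).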

How the data were processed

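Samples were grouped by their titles, with 1 library per cell type and assay. The deposited maps of 500 kb and 2 Mb bins carry contact signal that the authors balanced. They were made symmetric and scaled to row sums of 1000, and contacts between chromosomes were divided by the mean between autosomes. Bin order was read from the run of empty bins at the start of each chromosome, and 7 bins of 500 kb were not placed. The smallest steps between values gave back the read pairs: 99.9% of values joining different chromosomes were whole to within 0.05. Of 1391 naive and 1335 plasma listed pairs checked, 1388 and 1335 gave the same number. The deposited lists hold the authors' read pair counts per 1 Mb bin pair and a corrected p-value, per the file headers. The deposited peak lists hold 1 score per peak from the authors' caller, used here only to describe, rank or filter. The deposited RNA files give, per the file headers, the authors' TPM and estimated counts of transcripts, summed here to genes.

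Per the submitters' processing notes, the build was mm9 and the tools included Bowtie, HOMER, MACS 1.4 and kallisto; which tool did what, filters and pooling: not given in the sources used here. Compartments came from the leading principal component, per chromosome, of correlated distance-corrected contacts, signed so that bins rich in ATAC peaks were A. RNA ratios used a pseudocount of 1 TPM, which understates low genes, and were centred on their median where both libraries reached 5 TPM. Gene order came from GENCODE vM21. Single bins were described where, in each map, the share of nonzero entries reached 0.5 of its median. The chromosomes, pairs, bins and peaks named are every chromosome and the 5 at each end of each ranking, and the genes are the 10 largest and 10 smallest ratios with at least 50 TPM in 1 library, without immunoglobulin genes; bins ranked by share, the listed pairs, the switches and the promoter were added after their values were seen. The members and lists were chosen with earlier results of these data known. The position of the heavy chain locus is approximate. Scripts (Python 3.11.15, numpy 2.4.6, scipy 1.17.1) were tested on simulated data.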

Additional observations from a re-analysis of the deposited data

How the results depend on the processing

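No paired analysis was possible because each cell type has 1 library per assay. Of 55 alternatives over 14 results, 25 stayed within the counting interval or within 1.5 times the count, 28 moved and 2 reversed. Contact between distal ends (log2 ratio 0.73) was 0.88 in the last 6 Mb, 0.59 from unbalanced read pairs, 0.75 in the 2 Mb map, 0.72 with the filter on nonzero entries and 0.44 when not divided by the mean between chromosomes. Contact with centromere ends (-0.88) was -0.90 in the last 6 Mb, -0.90 from read pairs, -0.92 in the 2 Mb map and -1.17 undivided. Contact with the middle (-0.048) reversed to 0.035 in the last 6 Mb, was -0.096 from read pairs and -0.33 undivided; the cause was not tested. The share difference (-4.36 points) was -3.83 in the last 6 Mb, -4.50 with the filter and -3.74 from read pairs. Contact with the own centromere end (-2.00) was -2.07 in the 2 Mb map, and contact within the end (0.52) was 0.55 in the last 6 Mb, 0.39 from read pairs and 0.52 in the 2 Mb map. The 295 bins at 1.5 times became 98 at 2 times and 173 of 227 in the last 6 Mb. Shared naive peaks (73.4%) were 67.8% with an overlap of 0.5 of both peaks, 76.1% at scores of at least 100 and 75.1% in the last 6 Mb. The 12 compartment switches became 43 with no minimum (40 from A to B), 2 at 0.5 SD and 7 in the 2 Mb map. The ratio of listed pairs (3.38) was 4.02 in the last 6 Mb. The median RNA ratio (-0.26) was -1.25 uncentred and reversed to 0.63 with no filter, where genes at 0 in both libraries take the value of the centring. The count of 19 chromosomes with more contact between distal ends was 17 undivided, and that of 161 pairs was 141 undivided and 155 to 164 in the last 6 Mb, the 2 Mb map and the read pairs. Bins near the end of chromosomes 2, 4, 5 and 12 are sparse, and with 1 library per cell type the spread between animals is unknown.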

Other observations

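The distal end of chromosome X, which was not among the members, had contacts with the distal ends of chromosomes 1 to 19 of 1.02 times the mean between autosomes in the naive map (5840 read pairs) and 1.89 times in the plasma map (10362), a log2 ratio of 0.89 over 24 bins. Bins in the middle of chromosome X had 0.684 and 0.821 times the mean with the same ends.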
